A study of Homo sapiens with 12 samples.

Results

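The response to UHRF1 knockdown was described as the mean of the effects in TE10 and Kyse410, 2 established human lines grown from squamous carcinoma of the esophagus, and as the genes that moved in one direction in both. All 12 RNA-seq libraries of the study entered it: 3 of TE10 and 3 of Kyse410 stably infected with a short hairpin RNA (shRNA) against UHRF1, and 3 of each line with a scramble control hairpin. Polyadenylated RNA was sequenced. The groups of a line differ, per the labels, in the hairpin alone, and each line is one established tumour line. The labels do not tell several hairpins against UHRF1 apart, nor whether replicate libraries stem from separate cultures. The p-values therefore rest on spread among libraries that may be only technical. The study's stated aims were the link of UHRF1 to Akt signalling and to the epithelial-mesenchymal transition.

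UHRF1 recognises hemimethylated DNA behind the replication fork and brings the maintenance methyltransferase DNMT1 there, so that methylation patterns pass to the daughter strands. It is known as a factor that tumours of many tissues express at a raised level. Epithelial-mesenchymal transition is the programme in which epithelial cells lose junctions such as E-cadherin and gain matrix, motility and mesenchymal transcription factors.

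Levels are given in CPM, read counts of a gene scaled to a common library size by TMM, a trimmed-mean method. Effects are log2 fold changes of shRNA over scramble with their standard errors (SE), fitted with 1 mean per group, and the average weighs both lines equally. Values in brackets after a gene are such log2 fold changes. The threshold for a call was an adjusted p below 0.05 over the 16060 genes tested, and a called gene was kept as shared where the sign of its change was the same in each line. A stricter set had to be called in each line separately with one sign.

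Gene reads per library ranged from 7857662 to 12005229. Reads of mitochondrially encoded genes took 5.23 ± 0.432% (SD, n = 3) of the gene reads in TE10 with the shRNA and 6.0 ± 0.051% with the scramble, and 3.9 ± 0.105% against 2.38 ± 0.068% in Kyse410. The defining markers of blood cells PTPRC, CD3E, LYZ, HBB and CD68 stayed at or below 0.819 CPM in every library, and the fibroblast genes COL3A1, DCN and LUM and the endothelial genes VWF and KDR at or below 0.713 CPM. Of 16 listed fibroblast and endothelial genes 4 were tested, 2 of them shared higher, CDH5 (VE-cadherin; 0.62 in TE10 and 1.95 in Kyse410) and COL1A1 (0.26 in TE10 and 0.43 in Kyse410), and 1 shared lower, PDGFRB, a growth factor receptor gene (−2.25 in TE10 and −0.74 in Kyse410). The fourth, ENG, was called with opposite signs (−0.55 in TE10 and 0.57 in Kyse410). The summed level of the list ran from 118 to 140.1 CPM in TE10 with the shRNA and from 144 to 153 with the scramble, and from 351 to 379 against 214 to 225 in Kyse410. Its part in the results was not tested. The lines were not alike in the markers of squamous epithelium: TP63 and SFN were expressed in both, at no less than 57.6 and 193 CPM, whereas the basal keratin KRT5 had a mean of 67.4 CPM in TE10 with the scramble and 1.14 CPM in Kyse410. The desmosomal protein gene PKP1 was near 0 in both lines. Replicate 1 of TE10 with the shRNA moved the balance of higher against lower calls, and the counts of shared genes over all genes are given with and without it.

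The targeted gene fell in both lines. UHRF1 (ENSG00000034063) lay at 82.1, 86.8 and 88.9 CPM in TE10 with the shRNA against 173, 179 and 184 with the scramble, and 42.1, 43.5 and 41.9 in Kyse410 with the shRNA against 101, 101 and 95.1 with the scramble. All 6 shRNA libraries were below the scramble libraries of their own line. Groups apart in both lines with one sign were found for 3064 of the 16060 genes tested (19.1%). The average log2 fold change was −1.14 ± 0.039 (SE; adjusted p = 1.73e-30), which left 45.4% of the scramble level (95% interval 43.0 to 47.9%), with −1.06 in TE10 and −1.22 in Kyse410. The difference in the size of the knockdown (Kyse410 minus TE10) had a 95% interval of −0.32 to −0.0066 on the log2 scale and was not called (adjusted p = 0.093).

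In the average, 7619 genes were called (47.4% of those tested), and 6057 of them (37.7%) were shared. Of the shared genes 2807 were higher with the shRNA (17.5% of genes tested) and 3250 lower (20.2%). The other 1562 called genes had opposite signs in the lines, so that their average was set by the larger of the opposed changes. Of the shared genes, 2568 were called in each line (16.0% of genes tested), 1117 higher (6.96%) and 1451 lower (9.03%), 3157 in one line alone and 332 in neither. Of those called in one line, 1995 were called in Kyse410, where 49.3% of all genes tested were called, and 1162 in TE10, where 38.8% were. Without replicate 1 of TE10 with the shRNA, 3091 genes were shared higher and 2759 lower. With median-ratio size factors in place of TMM the counts were 3105 and 2965, so which direction held more genes turned with the scaling and with this library.

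Most shared changes were small. The median size of the average change among shared genes was 0.363 on the log2 scale. At least 2-fold changes in each line numbered 146 higher and 147 lower, and at least 4-fold changes 45 higher and 19 lower. Over all genes tested, 56.13% had the same sign in both lines, and the line effects had Pearson's r = 0.356 and Spearman's rho = 0.214 across genes, which are not independent replicates. Called changes of opposite sign were found for 1272 genes (7.92%), 689 of them higher in TE10 and 583 higher in Kyse410. The plot of the effects shows both sets.

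**Figure D1:**
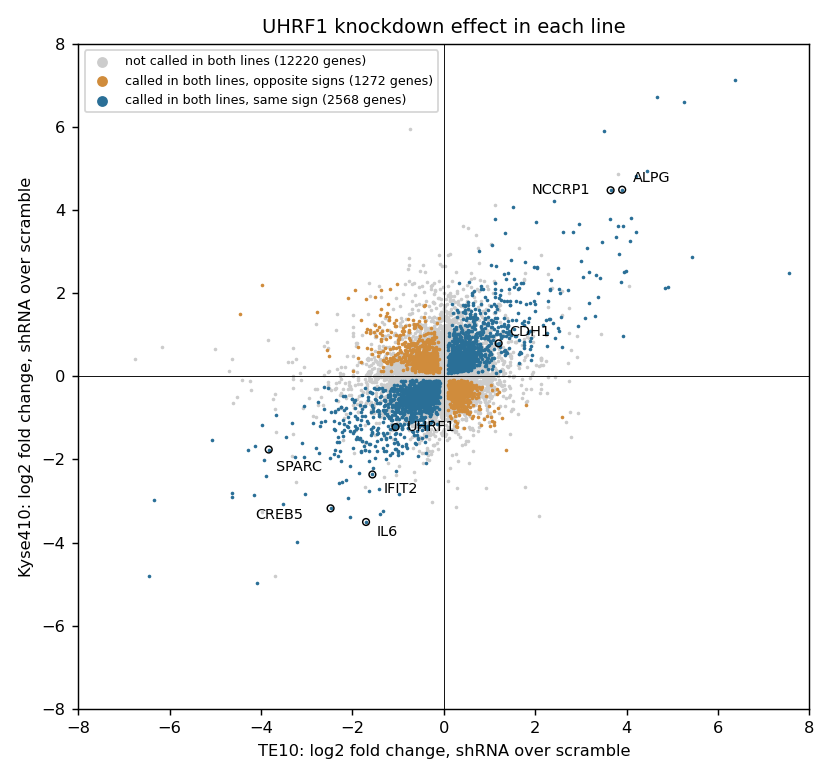
Log2 fold change of shRNA over scramble in TE10 (horizontal) and Kyse410 (vertical) for the 16060 genes tested, 1 point per gene. The 2568 genes called in both lines with one sign fill the lower left and upper right, and the 1272 called with opposite signs the upper left and lower right. Circles mark ALPG, NCCRP1, CDH1, UHRF1, SPARC, CREB5, IFIT2 and IL6.

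Genes called in both lines with one sign were ranked by the smaller change of the lines. Ranked genes had a mean level, over both groups, of at least 5 CPM in each line. Their shRNA and scramble libraries also had to be apart in both lines, so that separation is a condition and not a result. The largest shared rises included placental-type alkaline phosphatases, enzymes of the cell surface. ALPG lay at 111, 110.4 and 96.9 CPM in TE10 with the shRNA against 7.62, 5.11 and 8.37 with the scramble, and 137, 124 and 132 in Kyse410 with the shRNA against 7.56, 4.90 and 4.64 with the scramble. The average log2 fold change was 4.20 ± 0.074 (SE; adjusted p = 1.93e-43). ALPP, which had more reads, lay at 560.4, 560.1 and 559.9 CPM in TE10 with the shRNA against 139, 137 and 131 with the scramble, and 264, 241 and 242 in Kyse410 with the shRNA against 40.5, 38.2 and 41.8 with the scramble, an average of 2.34 ± 0.034 (SE). ALPG and ALPP are near-identical copies, so the split of reads between them is uncertain.

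NCCRP1, named for a receptor of non-specific cytotoxic cells and expressed in squamous epithelium, was nearly silent in the scramble libraries. Its values were 14.9, 18.1 and 13.002 CPM in TE10 with the shRNA against 1.16, 0.832 and 1.59 with the scramble, and 24.5, 22.2 and 21.6 in Kyse410 with the shRNA against 1.30, 0.918 and 0.758 with the scramble. The average was 4.07 ± 0.15 (SE). With scramble means of 1.19 CPM in TE10 and 0.992 CPM in Kyse410, NCCRP1 reached the 5 CPM of the ranking only through the shRNA libraries. DLX3, a homeobox factor of epidermal differentiation, rose (2.35 in TE10 and 2.33 in Kyse410), as did MUC13, a transmembrane mucin of gut epithelium (2.06 in TE10 and 2.01 in Kyse410). The other ranked rises were MPPED1 (3.81 in TE10 and 3.61 in Kyse410), the zinc finger gene ZNF114 (4.07 in TE10 and 3.27 in Kyse410), the ganglioside synthase gene B4GALNT1 (3.47 in TE10 and 3.24 in Kyse410), FRMD3 (2.84 in TE10 and 3.48 in Kyse410) and OTULINL (2.62 in TE10 and 3.47 in Kyse410). Scramble means were also below 5 CPM for MPPED1 (1.60 in TE10 and 2.77 in Kyse410), ZNF114 (1.15 and 1.24) and B4GALNT1 (2.13 and 1.12). The same held in TE10 for FRMD3 (4.56), and in Kyse410 for DLX3 (2.12) and OTULINL (2.99). The places of NCCRP1 and these genes in the ranking therefore support nothing.

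Under the same ranking conditions, the largest shared falls were those of a transcription factor, a matrix protein and interferon-stimulated genes. CREB5, a cyclic AMP response element binding factor, lay at 1.91, 4.47 and 2.39 CPM in TE10 with the shRNA against 14.2, 16.9 and 17.8 with the scramble, and 7.94, 7.78 and 8.57 in Kyse410 with the shRNA against 71.6, 77.6 and 69.9 with the scramble. Its average was −2.83 ± 0.1 (SE; adjusted p = 1.16e-29). SPARC, a secreted matrix protein of mesenchymal cells, lay at 6.62, 8.31 and 7.56 CPM in TE10 with the shRNA against 106, 109 and 106 with the scramble, and 21.3, 22.9 and 22.8 in Kyse410 with the shRNA against 70.7, 73.96 and 82.6 with the scramble. Its fall was larger in TE10 (−3.83) than in Kyse410 (−1.76), with adjusted p = 1.58e-18 for the difference.

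The activin-binding protein gene FST fell (−1.84 in TE10 and −1.48 in Kyse410), as did the microtubule-associated protein gene MAP1B (−3.46 in TE10 and −1.45 in Kyse410) and the NKG2D ligand gene RAET1L (−1.41 in TE10 and −2.70 in Kyse410). IL7R, the interleukin 7 receptor, lay at 48.9, 51.5 and 48.96 CPM in TE10 with the shRNA against 152, 143 and 149 with the scramble, and 41.8, 49.97 and 46.2 in Kyse410 with the shRNA against 116, 115 and 127 with the scramble. Its average was −1.47 ± 0.043 (SE), with −1.57 in TE10 and −1.37 in Kyse410. The sulfatase gene ARSJ fell (−1.58 in TE10 and −1.35 in Kyse410). The remaining ranked falls, IFIT1, IFIT2 and RSAD2, belong to the interferon-stimulated genes below.

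**Figure D2:**
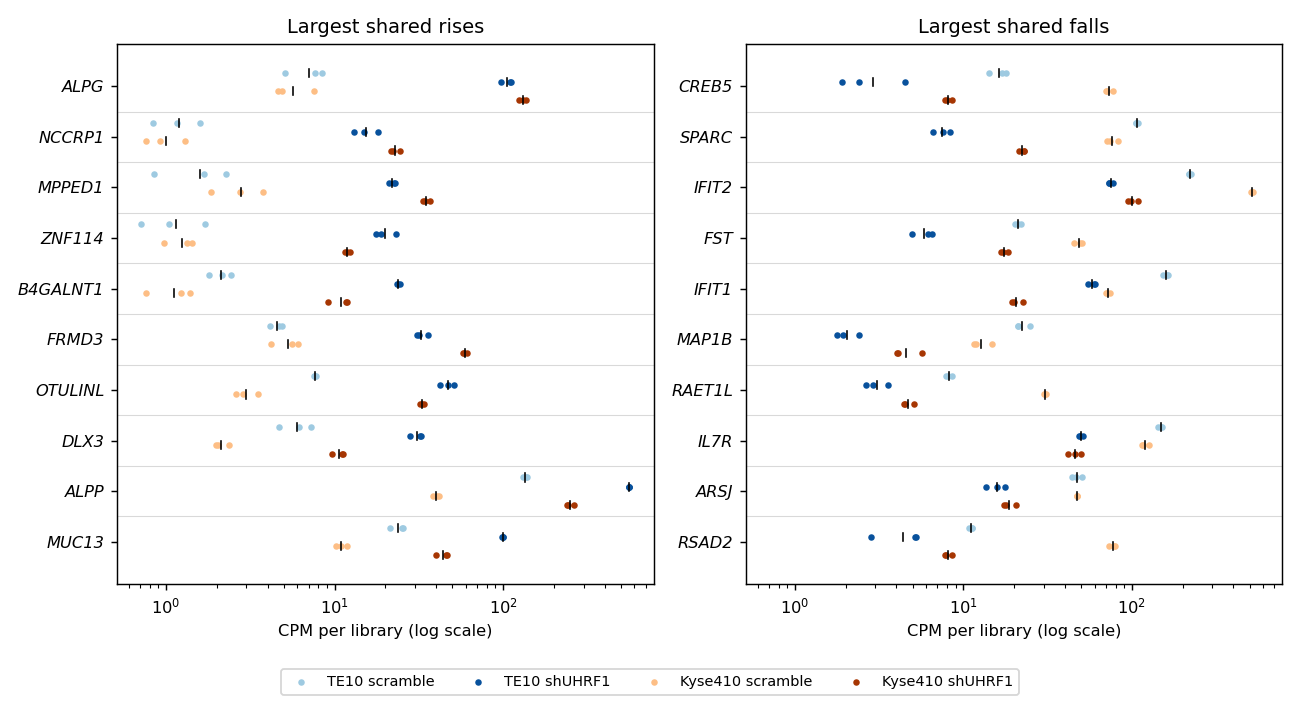
CPM per library on a log axis for the 10 largest shared rises (left) and falls (right), ranked by the smaller change of the lines. Each of the 4 groups has 3 points and a black bar for the mean. Ranked genes had a mean level of at least 5 CPM in each line, which some rises reached only through the shRNA libraries. That the shRNA and scramble libraries of a line do not overlap was a condition of the ranking.

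Genes that move together were read in 47 lists of named functions, each by its counts beside the 17.5% of all genes tested that were shared higher and the 20.2% shared lower. The lists and members were chosen with earlier results of these data known, so the counts are descriptions. Without replicate 1 of TE10 with the shRNA, the shared lower counts given below became 1 for epithelial adhesion and identity and 4 for desmosomes and tight junctions. Over all genes tested the median average change was −0.014.

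Epithelial genes were higher and mesenchymal genes lower in both lines. Of 25 tested genes of epithelial adhesion and identity, 19 were shared higher and 2 lower, with a median average change of 0.64, and 16 were called higher in each line. Of 22 tested genes of the mesenchymal state, 15 were shared lower and 2 higher, with a median of −0.70, and 11 were called lower in each line. The epithelial medians were 0.83 in TE10 and 0.67 in Kyse410, and the mesenchymal medians −1.01 in TE10 and −0.38 in Kyse410.

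CDH1, which encodes E-cadherin, the junction protein of epithelia, lay at 114, 122 and 119 CPM in TE10 with the shRNA against 51.3, 53.6 and 49.7 with the scramble, and 199, 193 and 194 in Kyse410 with the shRNA against 113, 112 and 113 with the scramble. All shRNA libraries were above the scramble libraries of their line, with an average log2 fold change of 1.0 ± 0.036 (SE; adjusted p = 2.95e-29). KRT19, a keratin of simple epithelia, lay at 488, 456 and 480.4 CPM in TE10 with the shRNA against 229.6, 225 and 222 with the scramble, and 229, 213 and 224 in Kyse410 with the shRNA against 90.1, 86.7 and 86.2 with the scramble. It rose on average (1.21 ± 0.03, SE). Its groups, like those of CDH1, did not overlap in either line, which held with one sign for 19.1% of all genes tested. ST14, the membrane serine protease matriptase, rose (1.29 ± 0.047, SE), with 1.39 in TE10 and 1.20 in Kyse410. The epithelial transcription factor ELF3 rose in both lines, by 1.90 in TE10 and less, by 0.40, in Kyse410. That difference between lines passed the test (adjusted p = 2.76e-15).

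CDH2, which encodes N-cadherin, lay at 15.6, 17.3 and 16.98 CPM in TE10 with the shRNA against 28.2, 30.2 and 31.4 with the scramble, and 9.03, 7.13 and 7.70 in Kyse410 with the shRNA against 16.3, 16.7 and 15.8 with the scramble. Both lines fell, with an average of −0.94 ± 0.081 (SE; adjusted p = 2.15e-14). The fibronectin gene FN1, a matrix protein of motile cells, lay at 337, 376 and 358 CPM in TE10 with the shRNA against 719, 689.5 and 695 with the scramble, and 240.2, 225 and 217 in Kyse410 with the shRNA against 513, 494 and 529 with the scramble. It fell (−0.97 in TE10 and −1.17 in Kyse410). The mesenchymal transcription factor genes ZEB1 (−0.92 ± 0.11, SE) and SNAI2 (−0.71 ± 0.043, SE) were lower on average, and the adhesion modulator TNC fell (−2.37 in TE10 and −0.84 in Kyse410).

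Not every mesenchymal gene followed. VIM, which encodes the intermediate filament vimentin, lay at 352, 362 and 353 CPM in TE10 with the shRNA against 834, 850.5 and 849 with the scramble, and 139, 145 and 134 in Kyse410 with the shRNA against 115, 109 and 111 with the scramble. It fell in TE10 (−1.25) and rose in Kyse410 (0.32), so it was not shared, although its average of −0.46 was called. SNAI1, a repressor of CDH1, was higher on average at 0.56 ± 0.082 (SE; adjusted p = 9.45e-08), whereas 15 members of the list were shared lower. The change of SNAI1 was 0.95 in Kyse410 and 0.17 in TE10, where it was not called (adjusted p = 0.253). Its difference between lines passed the test (adjusted p = 1.23e-04). The receptor kinase gene AXL fell (−0.45 in TE10 and −0.65 in Kyse410). NT5E, an ecto-nucleotidase, was shared lower, but its change was −1.26 in TE10 and only −0.057 in Kyse410, which became 0.0111 without replicate 1 of Kyse410 with the shRNA.

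Matrix and adhesion receptors were mostly lower. Of 30 tested collagens, laminins and integrins, 18 were shared lower and 4 higher, and 7 were called with opposite signs in the lines. The basement membrane collagen genes COL4A1 (−0.78 ± 0.034, SE) and COL4A2 (−0.66 ± 0.033, SE) fell by close amounts, as did COL7A1, the anchoring fibril collagen (−0.84 ± 0.029, SE). COL4A1 lay at 93.5, 97.1 and 101 CPM in TE10 with the shRNA against 168, 175 and 175 with the scramble, and 117, 108 and 107 in Kyse410 with the shRNA against 187, 182 and 182 with the scramble. COL5A1 fell more in TE10 (−1.11) than in Kyse410 (−0.34; adjusted p = 2.99e-18 for the difference). COL1A1, a fibrillar collagen gene, was among the 4 higher members, as given above.

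Of 26 tested matrix proteases and their inhibitors, 11 were shared lower and 4 higher, with 5 opposite. The serine protease inhibitor gene SERPINE2 fell in both lines (−1.28 in TE10 and −0.33 in Kyse410), and the metalloprotease gene ADAM12 fell (−1.57 in TE10 and −0.41 in Kyse410). CTSB, which encodes the lysosomal protease cathepsin B, had an average of −0.59 that came from TE10, with −0.031 in Kyse410 (0.0147 without replicate 2 of Kyse410 with the shRNA). The interstitial collagenase gene MMP1 moved in opposite directions (−1.21 in TE10 and 1.43 in Kyse410).

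Squamous genes gave no single direction. Of 20 tested genes of basal squamous identity, 4 were shared higher, 5 lower and 5 opposite, and of 21 tested genes of squamous differentiation 7 were shared higher, 4 lower and 4 opposite. The basal keratin genes KRT17 (−1.19 in TE10 and −0.98 in Kyse410) and KRT14 (−2.28 in TE10 and −1.79 in Kyse410) fell in both, KRT14 from a low level in Kyse410. The suprabasal keratin gene KRT13 rose (0.77 in TE10 and 0.27 in Kyse410), as did PPL, which encodes the cornified envelope protein periplakin (0.87 in TE10 and 0.34 in Kyse410). Of 7 tested kallikreins and alkaline phosphatases, 5 were shared higher and none lower, among them KLK10 (1.76 in TE10 and 0.68 in Kyse410). Another of the 5 was KLK5, a protease of epidermal shedding. Its values were 2.93, 3.83 and 4.11 CPM in TE10 with the shRNA against 1.03, 1.43 and 1.27 with the scramble. In Kyse410 they were 4.74, 4.75 and 6.94 CPM against 0.163, 0.306 and 0.474. KLK5 passed the count minimum only with the help of the libraries with the shRNA, so its call supports nothing. Among 22 tested desmosome and tight junction genes, 9 were shared higher and 7 lower. Plakoglobin (JUP; 0.84 in TE10 and 0.13 in Kyse410), the claudin gene CLDN4 (0.71 in TE10 and 0.36 in Kyse410) and the scaffold gene TJP3 (1.17 in TE10 and 0.77 in Kyse410) were among the higher ones.

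**Figure D3:**
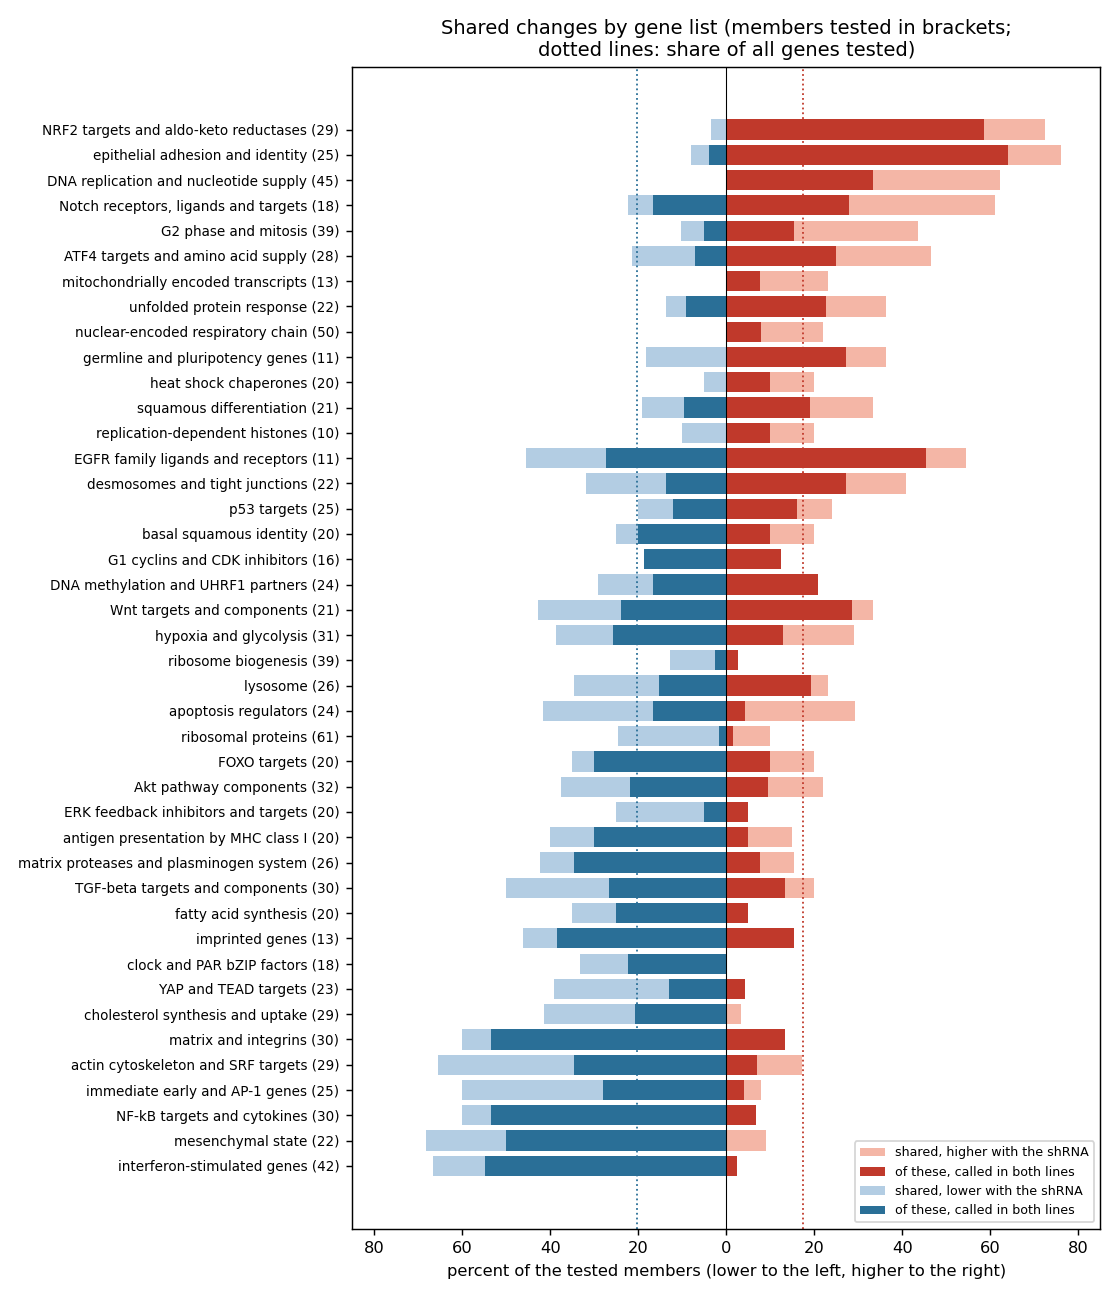
Percent of the tested members of each list that were shared higher (right, red) or shared lower (left, blue) with the shRNA, for lists with at least 10 tested members. Dark parts were called in both lines, and dotted lines mark the 17.5% and 20.2% of all genes tested. Interferon-stimulated genes, mesenchymal genes and NF-kB targets lie at the lower end, and NRF2 targets, epithelial genes and DNA replication genes at the upper end.

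Interferon-stimulated genes, which cells induce in answer to interferon and which restrict viruses, were lower in both lines. Of 42 tested, 28 were shared lower and 1, BST2 (0.14 in TE10 and 0.18 in Kyse410), higher. Their median average change was −0.55, with −0.67 in TE10 and −0.51 in Kyse410, and 23 were called lower in each line. Another 4, LGALS3BP, IFITM1, IRF7 and IFI35, were called with opposite signs.

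IFIT2, an RNA-binding antiviral protein gene, lay at 73.5, 73.2 and 77.2 CPM in TE10 with the shRNA against 225, 218 and 219 with the scramble, and 94.3, 108 and 98.5 in Kyse410 with the shRNA against 512, 524 and 513 with the scramble. The average log2 fold change was −1.96 ± 0.033 (SE; adjusted p = 7.42e-44). IFIT1 lay at 60.4, 59.8 and 54.5 CPM in TE10 with the shRNA against 164, 162 and 154 with the scramble, and 19.98, 22.4 and 19.5 in Kyse410 with the shRNA against 70.8, 73.96 and 70.2 with the scramble. The fall was larger in Kyse410 (adjusted p = 0.00391 for the difference), but the 95% interval of that difference, −0.52 to −0.14, stayed within 1.5-fold. RSAD2, which encodes viperin, lay at 5.22, 2.81 and 5.17 CPM in TE10 with the shRNA against 10.7, 11.3 and 11.2 with the scramble, and 7.85, 8.52 and 7.81 in Kyse410 with the shRNA against 72.97, 79.8 and 77.98 with the scramble. The fall was larger in Kyse410 (−3.25) than in TE10 (−1.33), with adjusted p = 2.61e-10 for the difference.

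Lower on average were also IFIT3 (−1.63 ± 0.042, SE), the oligoadenylate synthetase-like gene OASL (−1.20 ± 0.036, SE) and RIGI, the cytoplasmic sensor of viral RNA (−1.31 ± 0.059, SE). RIGI was also among the falls alike in size (−1.18 in TE10 and −1.45 in Kyse410). IRF9, a weakly expressed factor gene named after its values were seen, was not called in the average (−0.66 in TE10 and −0.40 in Kyse410; adjusted p = 0.183).

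The promoter windows of many of these genes hold the letters of the interferon-stimulated response element, which are GAAA, any 2 bases and GAAA, on either strand. The windows run from 250 bases before to 50 bases after the RefSeq start (GRCh38.p14) and were at hand for 10868 of the genes tested, of which 2.68% hold the letters. Among interferon-stimulated genes 20 of 33 windows hold them (60.6%), 12 of the 20 of shared lower genes and 8 of the 13 others. These are close shares. The stretches before the start of 8 shared lower genes, chosen after their values were seen, show how the copies sit, with the letters in capitals, copies on the other strand reading TTTC, any 2 bases and TTTC, and all given 5′ to 3′ along the gene.
IFIT1: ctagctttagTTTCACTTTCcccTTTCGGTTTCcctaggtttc
IFIT3: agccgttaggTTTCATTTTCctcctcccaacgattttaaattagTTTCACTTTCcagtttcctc
IFI27: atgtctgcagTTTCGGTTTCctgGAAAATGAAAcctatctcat
IFI44: gcacactgagTTTCAGTTTCctttctct
ISG15: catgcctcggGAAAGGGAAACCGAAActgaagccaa
IFITM3: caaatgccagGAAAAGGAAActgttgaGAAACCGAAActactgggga
SAMD9: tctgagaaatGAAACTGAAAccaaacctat
ISG20: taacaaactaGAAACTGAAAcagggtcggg
In GRCh38.p14 these lie at chr10:89392497-89392539, plus strand (IFIT1), chr10:89327831-89327894, plus strand (IFIT3), chr14:94110618-94110660, plus strand (IFI27), chr1:78649761-78649788, plus strand (IFI44), chr1:1013374-1013409, plus strand (ISG15), chr11:320876-320922, minus strand (IFITM3), chr7:93118096-93118125, minus strand (SAMD9) and chr15:88638937-88638966, plus strand (ISG20). IFIT1, IFIT3, IFI27, ISG15 and IFITM3 hold 2 matches in the stretch and the others 1. The average log2 fold changes of these genes ran from −1.63 (IFIT3) to −0.48 (ISG20). By line the values were those of IFI27 (−1.12 in TE10 and −0.93 in Kyse410), IFI44 (−0.69 in TE10 and −1.30 in Kyse410), ISG15 (−0.48 in TE10 and −1.28 in Kyse410), IFITM3 (−0.57 in TE10 and −0.51 in Kyse410), SAMD9 (−0.50 in TE10 and −0.84 in Kyse410) and ISG20 (−0.48 in TE10 and −0.48 in Kyse410). IFITM3 is near-identical to IFITM2, and reads may be shared.

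Antigen presentation by MHC class I was lower in part, with 8 of 20 tested genes shared lower and 3 higher. The lower genes included B2M, the light chain of every class I molecule (−0.48 in TE10 and −0.31 in Kyse410), the class I transactivator gene NLRC5 (−0.38 in TE10 and −0.77 in Kyse410), the peptide transporter gene TAP1 (−0.36 in TE10 and −0.34 in Kyse410) and the chaperone gene CALR (−0.22 in TE10 and −0.74 in Kyse410).

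Targets of NF-kB and cytokines were lower in both lines. Of 30 tested, 18 were shared lower and 2 higher, 16 lower in each line separately, and the medians were −0.51 in TE10 and −0.81 in Kyse410. The cytokine gene IL6 lay at 1.65, 1.79 and 1.46 CPM in TE10 with the shRNA against 5.30, 6.30 and 4.55 with the scramble, and 17.2, 19.3 and 17.5 in Kyse410 with the shRNA against 201, 204 and 210.1 with the scramble. Its average was −2.60 ± 0.12 (SE; adjusted p = 2.51e-25), the fall being larger in Kyse410 (adjusted p = 1.39e-06 for the difference). Also lower in both lines were C3, a complement component (−1.90 in TE10 and −1.01 in Kyse410), TNFAIP3, which encodes the feedback inhibitor A20 (−0.56 in TE10 and −1.50 in Kyse410), and IL11, an IL6-family cytokine (−0.39 in TE10 and −2.08 in Kyse410).

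Immediate early genes were also lower, 15 of 25 tested against 2 higher, but 7 of the 15 were called in each line. JUN, a subunit of AP-1, lay at 42.4, 44.5 and 44.4 CPM in TE10 with the shRNA against 62.5, 65.5 and 65.3 with the scramble, and 354, 325 and 347 in Kyse410 with the shRNA against 1315, 1259 and 1322 with the scramble. The change was −0.56 in TE10 and −1.93 in Kyse410 (adjusted p = 1.05e-21 for the difference). The zinc finger factor genes EGR1 (−0.29 in TE10 and −1.10 in Kyse410) and KLF6 (−0.91 in TE10 and −1.27 in Kyse410) fell. FOSL1, whose product is the AP-1 subunit FRA1, had an average of −0.39 from Kyse410, and its TE10 value of −0.01 became 0.0127 with median-ratio size factors.

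Among 20 tested feedback inhibitors and targets of the ERK kinases, 5 were shared lower and 1 higher, not far from the background. SPRY2, an inhibitor of receptor kinase signalling, fell in both lines (−1.11 in TE10 and −1.19 in Kyse410; 95% interval of the difference −0.35 to 0.20). The phosphatase gene DUSP10 had −0.097 in TE10, or 0.0012 without replicate 2 of TE10 with the shRNA, and −1.50 in Kyse410.

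Actin genes and targets of serum response factor were lower by small amounts, 19 of 29 tested shared lower and 5 higher, with 10 lower in each line. TNS1, the focal adhesion protein tensin, fell (−3.67 in TE10 and −0.94 in Kyse410), as did the actin-binding caldesmon gene CALD1 (−1.10 in TE10 and −0.34 in Kyse410), the vinculin gene VCL (−0.69 in TE10 and −0.092 in Kyse410) and the non-muscle myosin gene MYH9 (−0.27 in TE10 and −0.40 in Kyse410). YAP and TEAD targets were shared lower in 9 of 23, among them the matricellular gene CCN1 (−0.44 in TE10 and −1.11 in Kyse410), and higher in 1, with 5 opposite. Of the 9, 3 were called lower in each line. In TE10 7 members were called higher and 5 lower, and in Kyse410 3 higher and 15 lower. Of 30 TGF-beta targets and components, 15 were shared lower and 6 higher. THBS1, a matricellular activator of latent TGF-beta, lay at 65.4, 75.4 and 74.7 CPM in TE10 with the shRNA against 142, 146 and 141 with the scramble, and 42.3, 44.9 and 43.9 in Kyse410 with the shRNA against 163, 162 and 165 with the scramble. It fell in both lines, with an average of −1.45 ± 0.039 (SE).

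**Figure D4:**
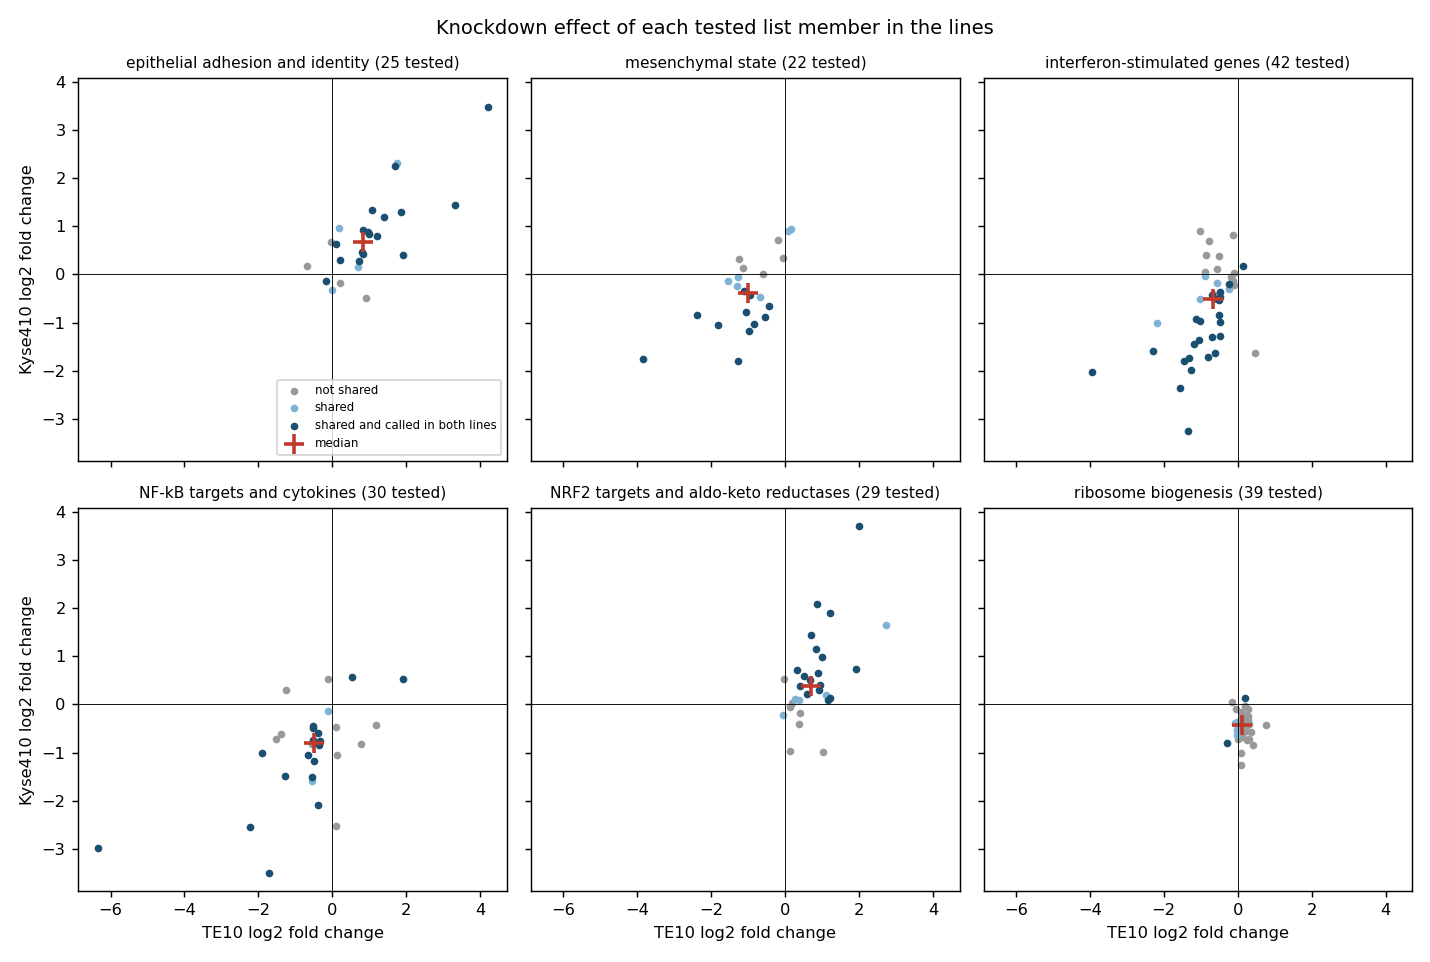
Log2 fold change in TE10 (horizontal) and Kyse410 (vertical) of each tested member of 6 lists, with a red cross at the median of the list. Epithelial genes and NRF2 targets lie mainly to the upper right and mesenchymal, interferon-stimulated and NF-kB genes to the lower left, whereas ribosome biogenesis genes lie below 0 in Kyse410 and at or just above it in TE10.

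Components of the Akt pathway, which carries insulin and growth factor signals, were divided. Of 32 tested, 12 were shared lower and 7 higher, and the median average change was −0.042. The insulin receptor substrate gene IRS1 lay at 26.3, 23.5 and 30.4 CPM in TE10 with the shRNA against 49.6, 55.7 and 54.96 with the scramble, and 29.2, 25.7 and 27.1 in Kyse410 with the shRNA against 103, 94.5 and 91.1 with the scramble. It fell (−1.0 in TE10 and −1.82 in Kyse410), and so did IRS2 (−0.96 in TE10 and −0.89 in Kyse410). The kinase genes AKT1 (0.31 ± 0.034, SE; adjusted p = 2.99e-11) and AKT2 (0.19 ± 0.033, SE; adjusted p = 1.64e-06) rose. AKT1 lay at 178, 181 and 188 CPM in TE10 with the shRNA against 162, 166 and 159 with the scramble, and 150.5, 143 and 133 in Kyse410 with the shRNA against 103, 105 and 103 with the scramble. The receptor gene IGF1R fell (−0.35 in TE10 and −0.10 in Kyse410), and 7 of 20 FOXO targets were shared lower, among them CITED2 (−0.52 in TE10 and −1.04 in Kyse410) and TRIB2 (−1.47 in TE10 and −0.65 in Kyse410), against 4 higher. The counts are of transcripts and do not show kinase activity.

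All 11 tested ligands and receptors of the EGFR family were shared, 6 higher and 5 lower. ERBB3, a receptor for neuregulins, lay at 2.42, 3.83 and 2.65 CPM in TE10 with the shRNA against 1.16, 1.66 and 1.16 with the scramble, and 11.5, 9.09 and 11.4 in Kyse410 with the shRNA against 1.30, 2.14 and 1.61 with the scramble. It rose by 1.15 in TE10 and 2.67 in Kyse410. The EGFR ligand genes EPGN (0.97 in TE10 and 1.59 in Kyse410) and HBEGF (0.41 in TE10 and 1.56 in Kyse410) rose, and EGFR itself fell slightly (−0.12 in TE10 and −0.47 in Kyse410).

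Of 18 tested Notch genes, 11 were shared higher and 4 lower, but 5 of the 11 were called in each line. The summed level of the Notch list was lower with the shRNA in both lines. It was 953 to 973 CPM against 981 to 1020 in TE10, and 1000 to 1023 against 1113 to 1160 in Kyse410. The glycosyltransferase gene LFNG, which tunes Notch to its ligands, rose (0.65 in TE10 and 1.73 in Kyse410), and the target genes HEY1 (0.23 in TE10 and 1.67 in Kyse410) and HES2 (0.08 in TE10 and 1.54 in Kyse410) had most of their average change from Kyse410. Without replicate 2 of TE10 with the scramble the TE10 value of HES2 was −0.00517. Wnt genes were divided, 7 of 21 shared higher and 9 lower, the lower ones including FZD2, a Wnt receptor (−1.13 in TE10 and −1.04 in Kyse410), NKD2 (−0.42 in TE10 and −1.22 in Kyse410) and RNF43, a ubiquitin ligase that removes Wnt receptors (−1.06 in TE10 and −0.88 in Kyse410).

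Targets of NRF2, the factor that drives antioxidant and NADPH-producing enzymes, were higher. Of 29 tested, 21 were shared higher and 1 lower, 17 higher in each line, and the median average was 0.60, with 0.69 in TE10 and 0.39 in Kyse410. The summed level of the list was higher with the shRNA in TE10 (10801 to 11477 CPM against 7481 to 7545) and lower in Kyse410 (6197 to 6600.4 against 8013 to 8296). ALDH3A1, an aldehyde dehydrogenase, lay at 71.6, 61.98 and 68.3 CPM in TE10 with the shRNA against 17.2, 15.2 and 20.8 with the scramble, and 81.4, 74.3 and 80.05 in Kyse410 with the shRNA against 46.6, 47.4 and 47.6 with the scramble. Its rise was 1.92 in TE10 and 0.73 in Kyse410, with an average of 1.32 ± 0.056 (SE; adjusted p = 1.37e-26). TXNRD1 (thioredoxin reductase) and FTL (ferritin light chain) rose mainly in TE10, by 1.15 and 1.22 there against 0.085 and 0.13 in Kyse410. Another 4 members, FTH1, SLC7A11, AKR1B1 and OSGIN1, were called with opposite signs, higher in TE10 and lower in Kyse410. The aldo-keto reductase genes AKR1C1 and AKR1C2 are near-identical and may share reads.

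Lipid synthesis genes were lower in TE10 and divided in Kyse410. Of 29 tested genes of cholesterol synthesis and uptake, 12 were shared lower and 1 higher, 6 were lower in each line and 7 were opposite, with medians of −0.50 in TE10 and 0.023 in Kyse410. HMGCS1, which makes the precursor of mevalonate, fell (−0.92 in TE10 and −0.54 in Kyse410), as did the squalene epoxidase gene SQLE (−0.92 in TE10 and −0.44 in Kyse410) and the regulator gene SREBF2 (−0.66 in TE10 and −0.20 in Kyse410). FDFT1 was shared on the strength of TE10, with −0.007 in Kyse410, or 0.00618 with median-ratio size factors. Of 20 fatty acid synthesis genes 7 were shared lower and 1 higher, with SCD, the stearoyl-CoA desaturase, falling (−1.55 in TE10 and −0.75 in Kyse410).

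Genes of amino acid supply under ATF4 were higher in 13 of 28 and lower in 6, with CTH, an enzyme of cysteine synthesis, rising (1.57 in TE10 and 1.82 in Kyse410), as did MTHFD2, a mitochondrial folate enzyme (0.23 in TE10 and 1.07 in Kyse410). The unfolded protein response had 8 of 22 shared higher, among them the protein folding genes CRELD2 (0.67 in TE10 and 0.97 in Kyse410) and PDIA4 (0.42 in TE10 and 0.69 in Kyse410), and 3 lower. Hypoxia and glycolysis genes were divided, 9 of 31 shared higher and 12 lower, with SLC2A3, a glucose transporter, falling (−2.15 in TE10 and −0.48 in Kyse410), as did NDRG1 (−1.18 in TE10 and −0.46 in Kyse410).

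DNA replication genes were higher, mainly in Kyse410, and none was shared lower. Of 45 tested, 28 were shared higher and 4 were opposite, with medians of 0.079 in TE10 and 0.46 in Kyse410, and 15 were called higher in each line. In TE10 17 members were called higher and 5 lower, and in Kyse410 40 higher and none lower. RRM2, a subunit of ribonucleotide reductase, lay at 398, 391 and 383 CPM in TE10 with the shRNA against 320.5, 295 and 315 with the scramble, and 324, 328 and 318 in Kyse410 with the shRNA against 205, 210.2 and 191 with the scramble. Its average was 0.51 ± 0.029 (SE; adjusted p = 4.4e-21). E2F1, a factor that drives S-phase genes, rose in both lines (0.63 in TE10 and 0.62 in Kyse410), as did LIG1, the replicative DNA ligase (0.36 in TE10 and 0.98 in Kyse410). CCNE2 (cyclin E2) rose mainly in Kyse410 (0.19 in TE10 and 1.53 in Kyse410).

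Of 39 genes of G2 phase and mitosis, 17 were shared higher, 4 lower and 4 opposite, but 6 of the 17 were called in each line. In TE10 7 members were called higher and 10 lower (median 0.015), and in Kyse410 26 higher and 2 lower (median 0.30). The mitotic kinase genes PLK1 (0.43 in TE10 and 0.53 in Kyse410) and AURKA (0.30 in TE10 and 0.63 in Kyse410) and their transcription factor FOXM1 (0.24 in TE10 and 0.25 in Kyse410) were higher. The retinoblastoma gene RB1 (−0.36 in TE10 and −0.28 in Kyse410) and the related RBL1 (−0.25 in TE10 and −0.25 in Kyse410) were lower. Targets of p53 were balanced, 6 of 25 shared higher and 5 lower, with MDM2 at 0.17 in TE10 and 0.18 in Kyse410. Apoptosis regulators had 10 of 24 shared lower and 7 higher, the BH3-only gene PMAIP1 falling (−0.51 in TE10 and −0.86 in Kyse410), as did the inhibitor gene BIRC3 (−0.33 in TE10 and −0.76 in Kyse410).

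In some functions many genes were called with opposite signs in the lines. Of 39 ribosome biogenesis genes, 1 was shared higher, 5 were shared lower and 15 were called with opposite signs, with medians of 0.12 in TE10 and −0.42 in Kyse410. GAR1, a small nucleolar RNA protein gene, was the one called lower in each line (−0.30 in TE10 and −0.79 in Kyse410). Ribosomal protein genes had 18 of 61 opposite, 15 shared lower and 6 higher, with medians of 0.046 in TE10 and −0.18 in Kyse410, and without replicate 1 of TE10 with the shRNA 9 were higher and 8 lower. Mitochondrially encoded transcripts had 7 of 13 opposite, lower in TE10 and higher in Kyse410 as were the shares of mitochondrial reads given above. Of 18 clock genes 6 were shared lower and 6 opposite; the repressor genes NR1D1 (−1.13 in TE10 and −0.82 in Kyse410) and NR1D2 (−0.71 in TE10 and −0.71 in Kyse410) and the activator gene TEF (−0.78 in TE10 and −1.14 in Kyse410) fell in both. Heat shock chaperones had 7 of 20 opposite, and lysosome genes 7 of 26, with 6 shared higher and 9 lower.

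Nuclear genes of the respiratory chain had 11 of 50 shared higher, none lower and 6 opposite. The 22% shared higher is not far from the 17.5% of all genes tested, and 4 of the 11 were called in each line. The medians were 0.19 in TE10 and −0.044 in Kyse410. Among the higher ones were NDUFB10, a subunit of complex I (0.48 in TE10 and 0.82 in Kyse410), and UQCRC2, a subunit of complex III (0.55 in TE10 and 0.19 in Kyse410). Of 10 tested histone genes 2 were shared higher and 1 lower. Neither of the 2 tested metallothioneins and none of the 3 tested clustered protocadherins was shared.

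The DNA methylation machinery itself changed modestly. Of 24 tested genes, 5 were shared higher and 7 lower, UHRF1 itself being one of the 7. DNMT1, the maintenance methyltransferase, lay at 393, 414 and 423 CPM in TE10 with the shRNA against 361, 345 and 369.8 with the scramble, and 319.9, 325 and 308 in Kyse410 with the shRNA against 269, 262 and 271 with the scramble. The rise of 0.22 ± 0.028 (SE; adjusted p = 2.53e-09) was small but present in both lines (0.19 in TE10 and 0.25 in Kyse410). UHRF2, the paralogue of UHRF1, fell (−0.28 in TE10 and −0.24 in Kyse410), as did ZBTB33, which encodes a methyl-CpG-binding repressor (−0.56 in TE10 and −0.28 in Kyse410).

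Genes often silenced by methylation were mostly below the count minimum. Of 42 listed germline and pluripotency genes, 11 were tested, and no untested member exceeded 1.99 CPM in any library. The cancer-testis gene MAGEA3 lay at 2.93, 1.79 and 2.26 CPM in TE10 with the shRNA against 0, 0.238 and 0 with the scramble, and 1.004, 2.13 and 0.868 in Kyse410 with the shRNA against 0, 0 and 0 with the scramble. It passed the count minimum only through the libraries with the shRNA, so its call supports nothing and no fold change is given, and it has a near-identical copy with which it may share reads. The pluripotency-associated genes ZFP42 (3.19 in TE10 and 1.77 in Kyse410) and DPPA2 (0.87 in TE10 and 1.29 in Kyse410) rose. All 42 listed genes together reached at most 74.3 CPM in any library, so these changes may start from low levels. Whether ZFP42 and DPPA2 passed the count minimum only through the libraries with the shRNA is not shown here, so their calls are not taken as support. Of 13 tested imprinted genes, 2 were shared higher and 6 lower, PEG10 falling (−1.49 in TE10 and −0.56 in Kyse410), as did GRB10, an adaptor of the insulin receptor (−0.98 in TE10 and −0.55 in Kyse410), and PLAGL1 (−1.22 in TE10 and −0.73 in Kyse410). The summed level of the imprinted list, which its most abundant members set, was nevertheless higher with the shRNA in both lines. It was 10757 to 11517 CPM against 7406 to 7452 in TE10, and 21499.5 to 23792.5 against 9799 to 10145 in Kyse410.

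Large shared changes were more frequent among genes whose promoter windows hold few CpG sites. In windows with an observed over expected CpG ratio under 0.4 (1314 genes), 2.82% of genes were at least 2-fold higher in each line and 2.13% at least 2-fold lower. The shares were 0.918% and 1.07% at ratios from 0.4 to 0.8 (3376 genes) and 0.405% and 0.518% over 0.8 (6178 genes). The shares of genes shared higher in the average were close in all classes, at 19.3%, 17.98% and 17.6%. Genes of the first class also had lower levels, with a median of 8.22 CPM against 24.4 and 38.7, and the part of level in the shares was not tested.

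**Figure D5:**
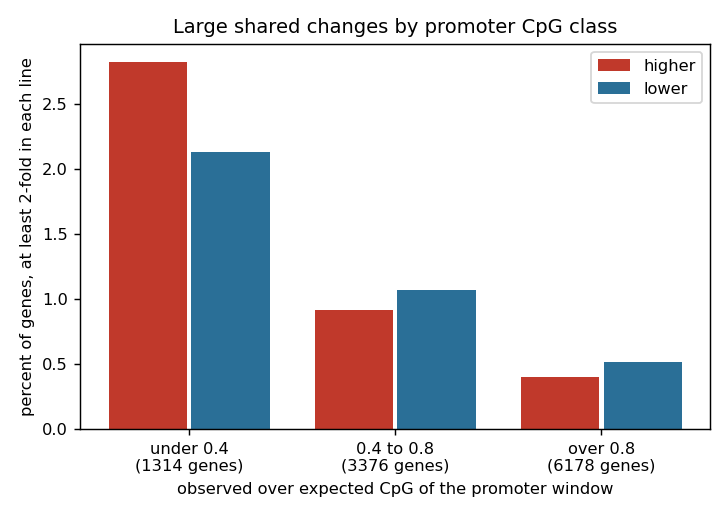
Percent of genes at least 2-fold higher (red) or lower (blue) with the shRNA in each line, in 3 classes of observed over expected CpG of the RefSeq promoter window. The class under 0.4 has 2.82% higher and 2.13% lower, and the class over 0.8 has 0.405% and 0.518%.

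Of the 2568 genes called in each line with one sign, 878 (34.19%) also differed in size between the lines, 387 with the larger change in TE10 and 491 in Kyse410. For 1604 (62.46%) the 95% interval of the difference lay within 1.5-fold, 676 higher and 928 lower. Besides IFIT1, IL7R, ARSJ, MUC13 and RIGI, the largest of these alike changes were rises of the renal sodium-chloride cotransporter gene SLC12A3 (1.79 in TE10 and 1.74 in Kyse410), the lysyl oxidase-like gene LOXL1 (1.46 in TE10 and 1.72 in Kyse410), the lipid droplet gene PLIN4 (1.40 in TE10 and 1.34 in Kyse410) and SRGAP3 (1.40 in TE10 and 1.21 in Kyse410), and the fall of ARL2BP (−1.55 in TE10 and −1.22 in Kyse410). SLC12A3 lay at 112, 104 and 116 CPM in TE10 with the shRNA against 30.1, 34.2 and 31.6 with the scramble, and 92.98, 85.4 and 91.7 in Kyse410 with the shRNA against 27.5, 26.2 and 26.9 with the scramble. Its groups were apart in both lines, as were, with one sign, those of 19.1% of all genes tested.

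The 332 genes called in neither line but in the average, 169 higher and 163 lower, had small changes. Those with the smallest adjusted p were ANKRD18B (0.25), ADIRF-AS1 (0.28), AGFG2 (0.31), ARMC7 (0.26) and COQ3 (0.32) among rises, and PTPN23 (−0.14), IFT88 (−0.38), SLC30A6 (−0.19), B4GALT1-AS1 (−0.19) and EEA1 (−0.14) among falls, all as average log2 fold changes. COQ3, an enzyme of ubiquinone synthesis, and IFT88, a component of cilia, are examples. Reads of the antisense genes cannot be told apart from those of the genes they overlap, since how strand was treated in counting is not given in the sources. Leaving out 1 library ended several of these calls. In TE10, the adjusted p was 0.19 for EEA1 and 0.0557 for SLC30A6 without replicate 1 of the shRNA, 0.0503 for ADIRF-AS1 without replicate 2 of the scramble, and 0.0925 for B4GALT1-AS1 and 0.0649 for EEA1 without replicate 3 of the scramble. In Kyse410 it was 0.0556 for PTPN23 without replicate 2 of the shRNA and 0.0555 for AGFG2 without replicate 3 of the scramble.

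Genes that moved most in opposite directions show what the average hides. FAT2, a protocadherin of squamous epithelium, lay at 3.05, 3.45 and 4.11 CPM in TE10 with the shRNA against 12.7, 11.5 and 10.6 with the scramble, and 9.12, 8.68 and 6.83 in Kyse410 with the shRNA against 2.11, 2.45 and 2.27 with the scramble. LTBP2, a matrix protein related to fibrillins, lay at 6.49, 5.37 and 4.25 CPM in TE10 with the shRNA against 14.3, 13.3 and 14.6 with the scramble, and 11.8, 10.8 and 10.1 in Kyse410 with the shRNA against 3.66, 4.18 and 3.88 with the scramble. In each the shRNA libraries lay on opposite sides of the scramble libraries in the lines, with −1.71 in TE10 and 1.86 in Kyse410 for FAT2 and −1.39 in TE10 and 1.48 in Kyse410 for LTBP2. The hormone gene STC1 had −1.82 in TE10 and 1.37 in Kyse410. The averages were only 0.077 for FAT2, 0.048 for LTBP2 and −0.22 for STC1.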

How the data were processed

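Polyadenylated RNA of 12 libraries was sequenced and each library's counts were deposited as raw whole-number counts of reads per gene. Per the submitters' processing notes, the build was GRCh37.p13 and the tools were HTSeq 0.9.1, HISAT2 2.1.0, bcl2fastq 2.19 and DESeq2. Settings, gene annotation and treatment of strand were not given in the sources. Symbols for 52338 of 57820 gene identifiers, with 99.02% of gene reads, were found, and the identifier of UHRF1 was assigned by hand. Libraries held 19346007 to 30727953 reads in all, of which 42.88 to 44.66% were given to no feature; these stayed out of library sizes. Replicate pairs differed by more than counting error, with a chi-square of 1.57 to 2.92 per degree of freedom.

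Counts were analysed with edgeR 4.0.16 in R 4.3.3: filterByExpr (16060 genes), TMM and one quasi-likelihood fit with 4 group means and 8 residual degrees of freedom, with Benjamini-Hochberg adjustment. A change was alike in size where the 95% interval of the difference between lines lay within 1.5-fold. The procedure was tested on simulated data. DESeq2 1.42.0, other scalings, no count filter, an additive fit, replicate blocks and leaving out each library were alternatives. No block was used, since the labels do not say that a replicate number marks a shared culture or batch. Same-numbered libraries did not deviate together. Tables were made in Python 3.11.15 with numpy 2.4.6 and pandas 2.3.3, and plots with matplotlib 3.10.9. Promoter windows came from RefSeq (GRCh38.p14), and positions in the files' own build are not given.

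Named genes were UHRF1, DNMT1, CDH1, CDH2, VIM, FN1, SNAI1, SNAI2, ZEB1, AKT1 and AKT2. Added were the 10 largest rises and falls ranked by the smaller change of the lines, with at least 5 CPM in each line and no overlap of libraries, and the 4 shared members of each list with the smallest adjusted p in its leading direction. Also added were the 5 genes each way called in neither line, the 5 each way alike in size and the 4 largest opposite changes. Members, lists and the rule were chosen with earlier results of these data known. Genes outside the rule are marked in the text or named only as list members. Some genes that the rule names are not reported here.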

Additional observations from a re-analysis of the deposited data

Results flagged for a closer look

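Among the shared genes named by the rule, 30 had a difference between the lines (Kyse410 minus TE10 effect, log2 scale) that passed the test and was at least 2-fold; 38.9% of all genes tested passed that test at any size. No test for outlying libraries was run on the groups of 3 libraries, but each library was left out in turn.

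Rises that were larger in Kyse410 were those of EMP1 (1.255), KLK5 (2.56), HBEGF (1.14), ERBB3 (1.52), PSAT1 (1.38), CCNE2 (1.34), LFNG (1.08), HES2 (1.46), HEY1 (1.44) and CDH5 (1.34). The value of KLK5 supports nothing, since that gene passed the count minimum only with the help of the libraries with the shRNA. Rises that were larger in TE10 were those of ELF3 (−1.50), KLK10 (−1.07), FTL (−1.09), TXNRD1 (−1.07), ALDH3A1 (−1.18) and ZFP42 (−1.42). For ZFP42 the limit given with the germline and pluripotency genes holds.

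Falls that were larger in Kyse410 were those of RAET1L (−1.29), RSAD2 (−1.91), IL6 (−1.80), IL11 (−1.69), JUN (−1.37) and DUSP10 (−1.41). Falls that were larger in TE10 were those of SPARC (2.07), MAP1B (2.01), TNC (1.53), CTSB (1.12), ADAM12 (1.17), NT5E (1.21), TNS1 (2.73) and SLC2A3 (1.68).

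The genes were taken from those with one sign in both lines, so the shared sign was fixed by that choice. The smaller change took the other sign when 1 library was left out in CTSB, NT5E, DUSP10 and HES2. EMP1, PSAT1, HES2, HEY1 and DUSP10 were not called in TE10, nor CTSB and NT5E in Kyse410. No explanation for the differences was tested.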

How the results depend on the processing

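The results were recomputed under 19 settings, 12 of which leave out 1 library each. Leaving out a library gave 7193 to 7433 genes called in the average, 2669 to 3091 shared higher and 2759 to 3224 shared lower. It gave 1004 to 1227 genes called higher and 1136 to 1398 called lower in each line, 1066 to 1293 with opposite signs and 1399 to 1548 alike in size. When at least 1.5-fold changes in each line were required, 304 genes were higher and 362 lower. The share of higher genes among shared genes was 46.34%. It was 52.84% without replicate 1 of TE10 with the shRNA, 51.15% with median-ratio size factors and 50.46% with DESeq2 (2806 higher and 2755 lower). The additive fit of line and hairpin kept 82.24% of the shared genes, the lowest share; the next lowest was 88.0%, without replicate 1 of TE10 with the shRNA. Of 1786 list counts recomputed, 1724 stayed within 1.5 times; p53 targets went from 6 higher and 5 lower to 4 and 5 under the additive fit. The average log2 fold change of MMP1 turned from 0.113 to −0.0956 under the additive fit (adjusted p = 0.864). The average log2 fold change of LTBP2 was −0.00242 (adjusted p = 0.991) to 0.118 when a library was left out, the lowest being without replicate 1 of TE10 with the shRNA. Both genes had opposite line effects and neither average was called. FOSL1, PHLDA1, FDFT1, GNL3 and POLR1B, with a TE10 or Kyse410 effect near 0, were not shared under median-ratio scaling because that sign turned. The replicate number did not pair the libraries: same-numbered libraries of a line had deviations correlated at −0.0046 to 0.0371. With the replicate block within each line 2843 genes were shared higher and 3282 lower, and with the block across lines 2841 and 3272. The depth and the 3 libraries a group limit the precision for low genes.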
